A study of Mus musculus with 12 samples.

Results

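A set of 10 immediate-early transcripts was followed through 12 RNA sequencing libraries of macrophages isolated from mouse tumours (tumour-associated macrophages, TAMs). The 10 genes, of 36439 in each count table, were Egr1, Egr2, Egr3, Fos, Fosb, Jun, Junb, Atf3, Zfp36 and Plk3. They were chosen by name with their library-size scaled counts in the 4 groups of these same libraries known, and found by matching Ensembl identifiers to symbols. All 10 were matched and passed the filter on low counts in both comparisons. The members' differences between groups are therefore given as a description, without p-values, and nothing is read from how many of them differ.

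Tumours were Lewis lung carcinomas, a transplanted mouse cancer, growing subcutaneously in C57BL/6 mice, and the libraries formed 4 groups of 3. The first pair of groups was sorted for the macrophage surface protein F4/80 and, in addition, for MRC1 (the mannose receptor) or CD11c (an integrin shared with dendritic cells). The second pair was F4/80+ TAMs made to overexpress either miR-511-3p, a microRNA encoded within Mrc1, or its mutated form, miR-511-3p-mut. The titles of the second pair name SFFV, a viral promoter, and no group without a vector is analysed beside them. Nothing in the sources used here gives the age of the mice, their number or any pooling. Replicates are numbered but not tied to separate mice or tumours, so a p-value measures the spread between these libraries alone, and that spread may be technical.

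Immediate-early genes are transcribed within minutes of a stimulus, without new protein synthesis, when kinases such as ERK, JNK and p38 act on factors already bound to their promoters. EGR proteins are zinc-finger transcription factors, and FOS and JUN proteins pair to form AP-1. ATF3 dampens inflammatory transcription, ZFP36 (tristetraprolin) marks AU-rich cytokine messages for decay, and PLK3 is a stress-responsive Polo-like kinase. In macrophages these genes respond to growth factors and microbial products, and also to the handling of tissue and cells, so their levels in isolated cells reflect both the tissue and the isolation.

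The microRNA and the sequences it or known regulators could read in these genes are shown first. Mature mmu-miR-511-3p lies on chr2:14261051-14261072 (GRCm38.p6, plus strand, RefSeq), and capitals mark its seed, bases 2 to 8.
mmu-miR-511-3p: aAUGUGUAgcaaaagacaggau

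The 3′ UTRs of the 10 members (GENCODE M21) were searched for TACACAT, the match to the seed, and for ACACATA, the shorter match followed by A. Egr3 alone held either, 1 of each, in a 3′ UTR of 2645 bases. TACACAT stood in 12.4% and ACACATA in 14.1% of 21010 genes, and in 20.5% and 25.7% of genes with a 3′ UTR of similar length to that of Egr3. The capitals below mark these matches, which start at bases 1402 and 1196 of the UTR. The other members held neither match, among them Egr2 and Plk3, whose libraries separated and were higher under miR-511-3p. A direct effect of the microRNA on the members was not tested.
Egr3 seed match: gtgtatatgcaTACACATtctgttcaaatt
Egr3 shorter match: tgtttctttagACACATAtatttacataac

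TATTTAT, the core of the AU-rich element to which ZFP36 binds, was searched in the same UTRs. It stood in 6 of the 10 members (Fos, Fosb, Jun, Atf3, Zfp36 and Plk3) against 27.6% of all genes. Plk3 had 3 matches in a 3′ UTR of 332 bases, a length at which 7.57% of genes have one, Zfp36 had 3 in 774 bases (17.6%) and Fos 2 in 815 bases (18.1%). Fosb, Jun and Atf3 had 1 match each, at lengths where 40.9%, 27.9% and 27.4% of genes have one. The first match of Plk3, Zfp36 and Fos is printed with the element in capitals.
Plk3 AU-rich element: ctagggggcatTATTTATggaccactttta
Zfp36 AU-rich element: agtgggcccttTATTTATgacgactttatt
Fos AU-rich element: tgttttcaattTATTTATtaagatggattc

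Promoter windows of 300 bases (250 before to 50 after a RefSeq start, GRCm38.p6) were matched for 8 members. Egr1 and Egr3 had no window and were not searched, nor was sequence further upstream of any member. Each motif was searched on both strands. A member was counted when any of its windows held the motif, and Egr2 had several windows. The shares below are of single windows, so the members' counts and these shares are not in like units. The CArG box, to which serum response factor binds, stood in 1.63% of 32851 windows and in those of Egr2 and Zfp36. TGACG, the half-site of the cyclic AMP response element, stood in 20.8% of windows and in those of 6 of the 8 members, Atf3, Egr2, Fos, Fosb, Junb and Plk3. GCGNGGGCG, to which EGR proteins bind, stood in 5.55% of windows and in those of Fosb and Zfp36. The full element TGACGTCA (1.79% of windows, and each match also holds TGACG) and the AP-1 element TGANTCA (7.81%) were in no member's window. Capitals mark the motif in the examples below, from Egr2 chr10:67537787-67537816 (plus strand), Zfp36 chr7:28379267-28379296 (minus), Plk3 chr4:117134078-117134107 (minus) and Fos chr12:85473812-85473841 (plus). A match describes letters in the genome and is no measurement of binding.
Egr2 CArG box: gttcctcagtCCATATATGGgcagcgacgt
Zfp36 CArG box: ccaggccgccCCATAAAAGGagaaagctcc
Plk3 half-site: agatctttcaggTGACGtaaggcggagcaa
Fos half-site: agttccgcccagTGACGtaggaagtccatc

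Each library held 10824918 to 27890433 reads counted to genes. Levels are CPM, each count as a share of its library, with TMM factors computed within each comparison. The libraries carried the groups' markers. Mrc1 stood at 3777 ± 279 CPM (mean ± SD, n = 3) in MRC1+ and 1615 ± 193 in CD11c+ TAMs, and Itgax, which encodes CD11c, at 102 ± 22.1 and 988 ± 56.2. Adgre1, which encodes F4/80, stood at 1115 ± 104 and 641 ± 112 CPM. Mir511 had 63 to 80 reads in each miR-511-3p library and 3 to 9 in each mutated one. Markers of other cells were present in all groups. The first CD11c+ library stood apart from its group on the second principal component (13.9% of the variance), and its fibroblast markers summed to 1200 CPM. The same sum was 277 and 334 CPM in the second and the third CD11c+ library and ran from 632 to 880 CPM with MRC1.

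Per length, as taken here, Fos was the most abundant member in the 4 groups and Egr3 the least. RPKM, the CPM divided by the summed exon length, put Fos at 473 ± 125 (SD, n = 3) in MRC1+, 453 ± 101 in CD11c+, 385 ± 54.1 in miR-511-3p and 342 ± 48.4 in mutated miR-511-3p TAMs. Egr3 stood at 1.83 ± 0.267, 1.36 ± 0.307, 13.0 ± 1.36 and 12.4 ± 3.01 RPKM in the same order. Between these, both sorted groups followed the order Junb, Atf3, Zfp36, Egr2, Jun, Fosb, Plk3, Egr1, and both overexpression groups the order Zfp36, Junb, Atf3, Fosb, Egr2, Jun, Egr1, Plk3. The lengths joined the exons of all annotated transcripts, and for Zfp36 this came to 3470 bases, the whole span of the gene. A shorter length for Zfp36 would raise its RPKM, so the ranks hold for these lengths alone. Several neighbours were not separated by their libraries. In MRC1+ TAMs Atf3, Zfp36 and Egr2 each overlapped with the next in RPKM, as did Plk3 with Egr1. In CD11c+ TAMs Fos overlapped with Junb, Atf3 with Zfp36, Zfp36 with Egr2, and Jun with Fosb. The miR-511-3p libraries overlapped between Zfp36 and Junb, Junb and Atf3, Fosb and Egr2, Egr2 and Jun, and Jun and Egr1, whereas in the mutated libraries only the neighbours Zfp36 and Junb overlapped.

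**Figure D1:**
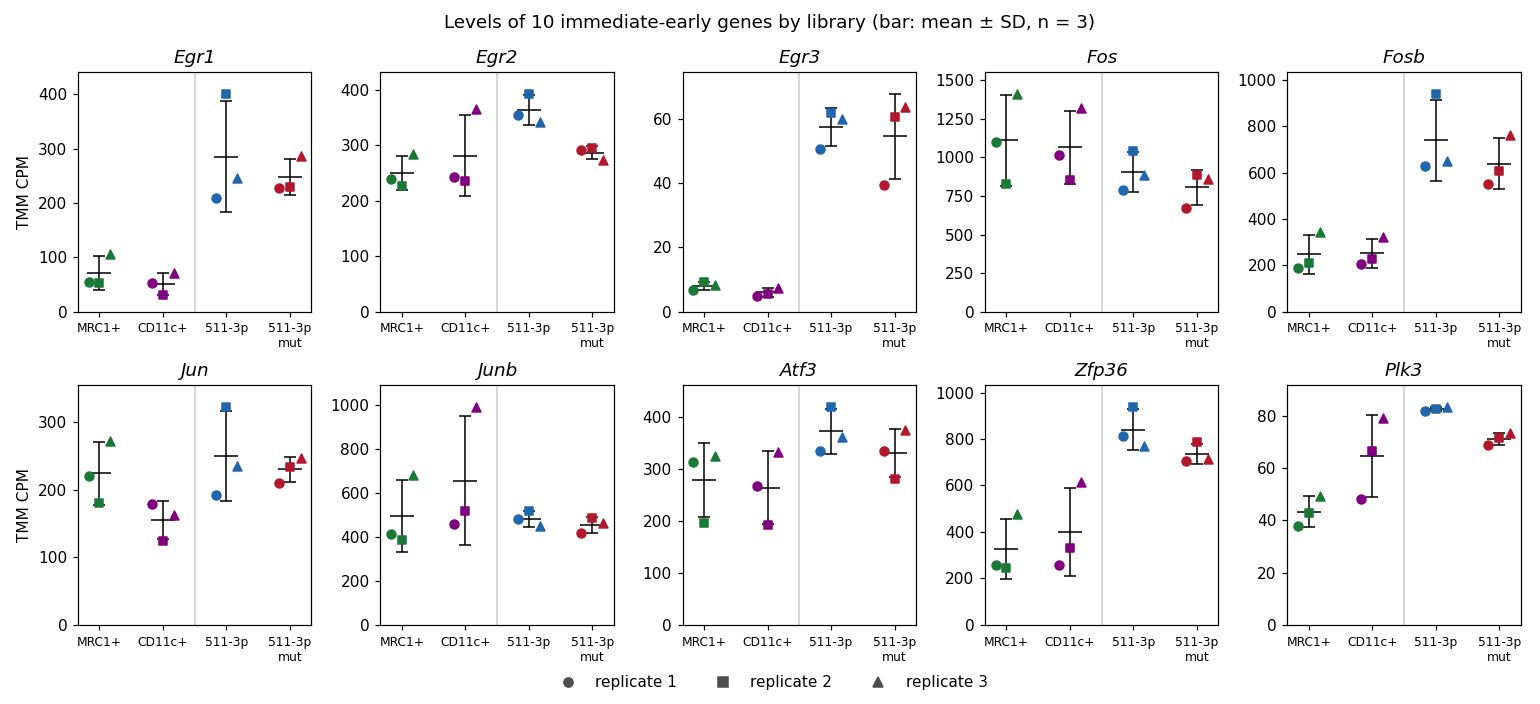
TMM-scaled CPM (vertical axis, linear and starting at 0, a scale of its own for each gene) of the 10 members in the 12 libraries, with points for libraries and bars for the mean and SD of each group of 3. Jun is the only member whose sorted groups are separate, and Egr2 and Plk3 are the only members whose overexpression groups are separate.

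The members varied together between libraries of a group. In both sorted groups the third library was above the group mean for 10 of 10 members and held the highest value for 9. The mean deviation of the members' log2 CPM from the group mean was 0.37 in the third MRC1+ library, against -0.14 and -0.23 in the first and second. In CD11c+ TAMs it was 0.42 in the third library against -0.17 and -0.25. The second miR-511-3p library was highest for 9 of the 10 members, with a mean deviation of 0.22, and the mutated libraries lay between -0.13 and 0.11. Over all genes tested, the mean deviation of any library lay between -0.05 and 0.06.

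The members spread more within a group than the typical expressed gene did. The median SD of log2 CPM over the members was 0.40 in MRC1+ and 0.36 in CD11c+ TAMs, against 0.10 and 0.15 over the 9670 and 9549 genes averaging 10 CPM or more. In the overexpression groups it was 0.16 with miR-511-3p and 0.15 with the mutated form, against 0.09 and 0.10. Egr1 ranged from 52.0 to 106 CPM within MRC1+ and from 30.3 to 70.3 CPM within CD11c+ TAMs. Plk3 in the miR-511-3p libraries, from 81.8 to 83.4 CPM, was the tightest.

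Other stimulus-responsive genes moved with these libraries in part. The 36 further immediate-early genes deviated on average by 0.26 in the third MRC1+ and 0.36 in the third CD11c+ library, but by 0.00 in the second miR-511-3p library. Heat shock genes, a common sign of stress during tissue dissociation, deviated by 0.09, 0.18 and 0.30 in these 3 libraries, in that order. Heat shock genes and members were both below 0 in MRC1+ library 2 (-0.19 and -0.23, in that order) and CD11c+ library 2 (-0.23 and -0.25). The same held for miR-511-3p libraries 1 (-0.25 and -0.15) and 3 (-0.06 and -0.07) and mutated library 1 (-0.32 and -0.13). Both were above 0 in mutated libraries 2 (0.20 and 0.02) and 3 (0.12 and 0.11). Their signs differed in MRC1+ library 1 (0.09 and -0.14) and CD11c+ library 1 (0.05 and -0.17). The part of cell handling in the members' levels was not tested.

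**Figure D2:**
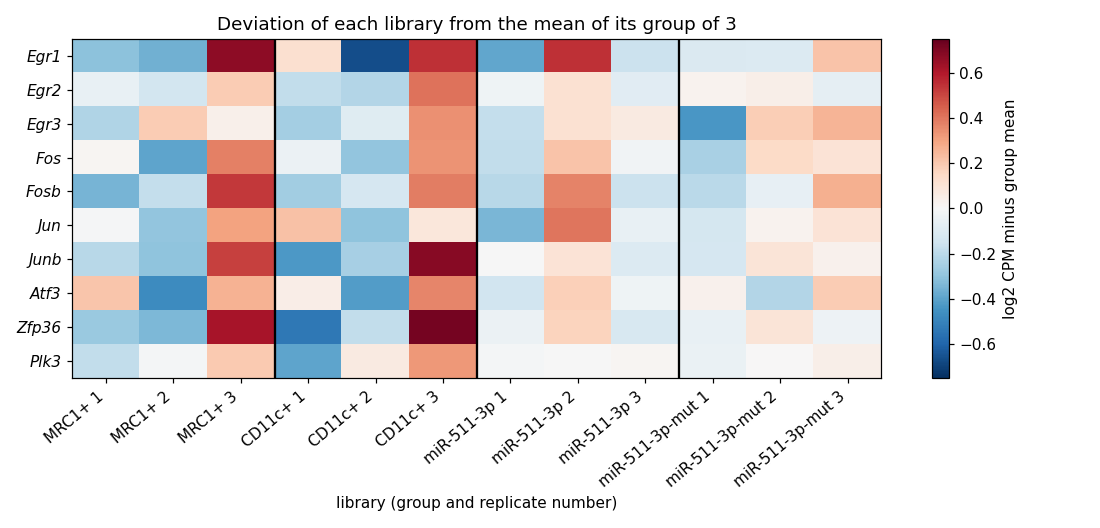
Deviation of each member's log2 CPM from its group mean (colour, red above and blue below 0), with members as rows and the 12 libraries as columns. The third library of both sorted groups lies above 0 for 10 of 10 members, and the second miR-511-3p library for 9.

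The first comparison asked which transcripts separated MRC1+ from CD11c+ TAMs. Among all genes, 2597 of 15622 passed edgeR's quasi-likelihood test at an adjusted p of 0.05, or 16.6% (6.91% higher in MRC1+ and 9.71% lower). None of the 10 members passed. An unadjusted p under 0.05 was reached by 2 of the 10, Jun and Plk3, beside 33.3% of all genes, and DESeq2 passed the same 2, beside 19% of all genes. The members' counts are under the first share and near the second. As the members were chosen with these values known, their counts are a description and nothing is read from them. Log2 fold changes were above 0 for 5 members and below 0 for 5, from -0.57 to 0.53, with a median of 0.02 beside 0.01 for all genes. The members' median ran from -0.22 without the third MRC1+ library to 0.23 without the third CD11c+ library. Only for Jun did the 3 MRC1+ libraries not overlap with the 3 CD11c+ libraries. Of all genes, 18.7% were separate and higher in MRC1+ and 19.6% separate and lower. In bulk RNA, fewer cells of a type and less RNA per cell cannot be told apart.

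Among the EGR factors, Egr1 (ENSMUSG00000038418, chromosome 18) measured 53.9, 52.0 and 106 CPM in the MRC1+ and 52.2, 30.3 and 70.3 CPM in the CD11c+ libraries. The groups overlapped, and the log2 fold change of MRC1+ over CD11c+ was 0.48 ± 0.35 (SE). Egr2 (ENSMUSG00000037868, GRCm38 chr10:67535475-67542188), which macrophages use in alternative activation, measured 239, 226 and 284 CPM in MRC1+ and 242, 236 and 365 CPM in CD11c+ libraries. The high value was that of the third CD11c+ library, and the log2 fold change was -0.17 ± 0.18. Egr3 (ENSMUSG00000033730, chr14:70077203-70082614) was scarce, at 6.84, 9.17 and 8.23 CPM in MRC1+ and 4.92, 5.54 and 7.51 CPM in CD11c+ libraries. Its log2 fold change was 0.45 ± 0.20, and the groups overlapped through the third CD11c+ library alone.

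Of the AP-1 subunits, Fos (ENSMUSG00000021250, chr12:85473890-85477273) measured 1097, 826 and 1413 CPM in MRC1+ and 1019, 855 and 1323 CPM in CD11c+ libraries. Fosb (ENSMUSG00000003545, chr7:19302696-19310051) measured 187, 211 and 344 CPM against 207, 227 and 323 CPM. The groups of each gene overlapped over most of their range, with log2 fold changes of 0.06 ± 0.22 and -0.03 ± 0.25. Jun (ENSMUSG00000052684, chr4:95049034-95052222) measured 220, 180 and 272 CPM in MRC1+ and 179, 125 and 163 CPM in CD11c+ libraries. The lowest MRC1+ library lay just above the highest CD11c+ library, and the log2 fold change was 0.53 ± 0.18. Junb (ENSMUSG00000052837, chr8:84974484-84978718) measured 414, 388 and 683 CPM in MRC1+ and 458, 519 and 992 CPM in CD11c+ libraries. Its log2 fold change was -0.41 ± 0.32, opposite in sign to that of Jun, and the third library was the highest in both groups. Exons of Jun overlap the antisense gene Junos and those of Junb overlap Prdx2 on the other strand. Whether the counting used strand is not known here, so reads of such pairs cannot be told apart.

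Atf3 (ENSMUSG00000026628, chr1:191170296-191218039) measured 314, 196 and 325 CPM in MRC1+ and 267, 193 and 332 CPM in CD11c+ libraries. The ranges nearly coincided, with a log2 fold change of 0.08 ± 0.24. Zfp36 (ENSMUSG00000044786, chr7:28376784-28380253) measured 256, 246 and 477 CPM against 259, 330 and 616 CPM, a log2 fold change of -0.30 ± 0.36. As for Junb, the third library of each group was far above the others. Plk3 (ENSMUSG00000028680, chr4:117128655-117133963) measured 38.0, 42.7 and 49.5 CPM in MRC1+ and 48.1, 66.4 and 79.4 CPM in CD11c+ libraries. Its log2 fold change was -0.57 ± 0.18, the largest size among the members, and only the first CD11c+ library fell within the MRC1+ range. Exons of Zfp36 overlap the antisense gene Gm44710 and those of Plk3 overlap Tctex1d4 on the other strand.

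Same-numbered libraries deviated together, and between them Jun was higher in MRC1+ by 0.29, 0.53 and 0.74 on the log2 scale. Plk3 differed by -0.34, -0.64 and -0.68. Blocking on the replicate number put Jun and Plk3 past the threshold, 2 of 10 members beside 17.8% of all genes (2788). Leaving out the first CD11c+ library did the same, at log2 fold changes of 0.65 for Jun and -0.75 for Plk3, beside 29.6% of all genes (4707). Since the members were chosen on these counts, these passes are a description and no test. Without the third CD11c+ library the log2 fold changes of Egr2 (0.07), Junb (0.03), Zfp36 (0.16) and Fosb (0.20) were above 0. Fosb was also above 0 without the first (0.15) or second (0.06) MRC1+ library, and Fos (-0.16) and Atf3 (-0.06) were below 0 without the third. Without the second CD11c+ library, Fos stood at -0.08 and Atf3 at -0.11, and without the first MRC1+ library Atf3 stood at -0.00. Scaling by library size alone moved the median of all genes to 0.14 and the calls to 1636 higher and 1110 lower, from 1080 and 1517 with TMM and 1348 and 1325 with upper-quartile scaling. Fosb stood at 0.11 with library-size scaling, below that median, and at 0.03 with upper-quartile scaling.

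**Figure D3:**
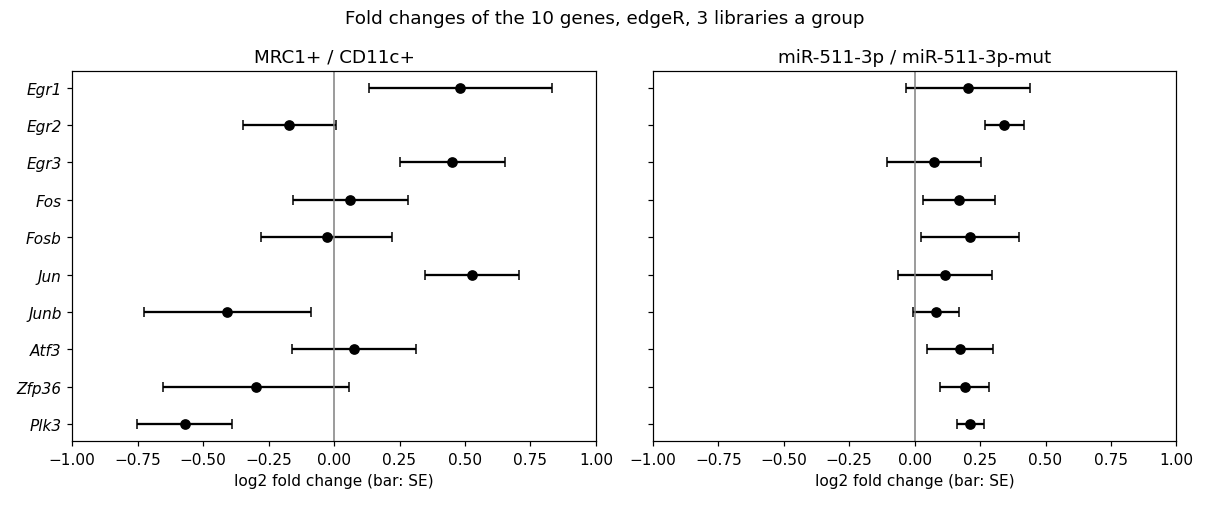
Log2 fold change of each member in both comparisons (horizontal axis), with bars for the approximate standard error and 6 libraries per comparison. Members lie on both sides of 0 for MRC1+ over CD11c+ TAMs, and 10 of 10 lie above 0 for miR-511-3p over its mutated form, where none passed the test over all genes.

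Other immediate-early genes did pass the test in the sorted groups. Of 36 listed, 10 were lower and 2 higher in MRC1+ TAMs, beside 16.6% of all genes in either direction. The list's median log2 fold change was -0.45, and -0.20 without the third CD11c+ library. This list and those below were chosen with earlier results of these data known, so their counts are a description. The list was not tested against the members. Cd69, an early activation antigen of leukocytes, stood at 14.4 ± 1.42 CPM in MRC1+ and 73.3 ± 17.9 CPM in CD11c+ TAMs, a log2 fold change of -2.35 ± 0.18 (edgeR adjusted p = 0.000152). Rgs2, a regulator of G-protein signalling, stood at 74.9 ± 16.2 against 198 ± 10.2 CPM (-1.40 ± 0.15, adjusted p = 0.000700). Nfil3, a leucine-zipper repressor, stood at 97.1 ± 5.93 against 235 ± 59.7 CPM (-1.27 ± 0.18, adjusted p = 0.00250), and Btg2, an antiproliferative gene, at 294 ± 65.9 against 736 ± 155 CPM (-1.32 ± 0.20, adjusted p = 0.00318). The orphan nuclear receptors Nr4a2 (-1.29 ± 0.20) and Nr4a3 (-1.83 ± 0.30) and the signalling regulator Rgs1 (-1.47 ± 0.28) were lower as well, at edgeR adjusted p of 0.00373, 0.00476 and 0.0105. These 7 calls held in each alternative run.

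The remaining calls of that list were lost when single libraries were left out. Bhlhe40 (-1.38 ± 0.27, adjusted p = 0.0121) was lost without the first (0.0563) or second (0.0527) MRC1+ library. Myc, higher in MRC1+ (0.87 ± 0.19, adjusted p = 0.0193), was lost without MRC1+ library 2 (0.0633) or 3 (0.0779) or CD11c+ library 2 (0.0714) or 3 (0.0608). Btg1 (-0.74 ± 0.19, adjusted p = 0.0357) was lost without the first (0.114) or second (0.124) MRC1+ or the second (0.0631) or the third (0.0606) CD11c+ library. Klf2, also higher (0.37 ± 0.10, adjusted p = 0.0386), was lost without any MRC1+ library (0.0821, 0.123 and 0.104), without the third CD11c+ library (0.0755) and in the fit of 12 libraries (0.0747). Ptgs2, which encodes cyclooxygenase-2, stood at -1.63 ± 0.46 (adjusted p = 0.0452). It was lost with DESeq2 (0.0593), with a filter of 5 CPM (0.0501) and without the first (0.141) or second (0.149) MRC1+ or the second (0.0682) or the third (0.104) CD11c+ library. With the replicate block, 19 genes of the list were lower and 2 higher, and without the first CD11c+ library 15 were lower and 5 higher. Dendritic cell markers moved with this contrast. Their 13 genes summed to 128 to 174 CPM in MRC1+ and 1330 to 1673 CPM in CD11c+ libraries, 12 passed as lower, and none was at 0. Itgax, which encodes the sorted protein CD11c, is among the 12 and made up most of the CD11c+ sum. It stood at 102 ± 22.1 CPM in MRC1+ and 988 ± 56.2 CPM in CD11c+ TAMs. Markers of other cells differed too. Of 6 epithelial and carcinoma genes, 4 passed as higher in MRC1+ TAMs and 2 as lower, and of 4 endothelial genes tested, 1 and 3. Lower were 2 of 9 T and NK cell and 1 of 4 neutrophil genes tested, and 3 of 8 macrophage genes were higher. No B cell or fibroblast gene passed, though 10 of 10 fibroblast genes were above 0. The part of dendritic or other cells in these results was not tested.

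**Figure D4:**
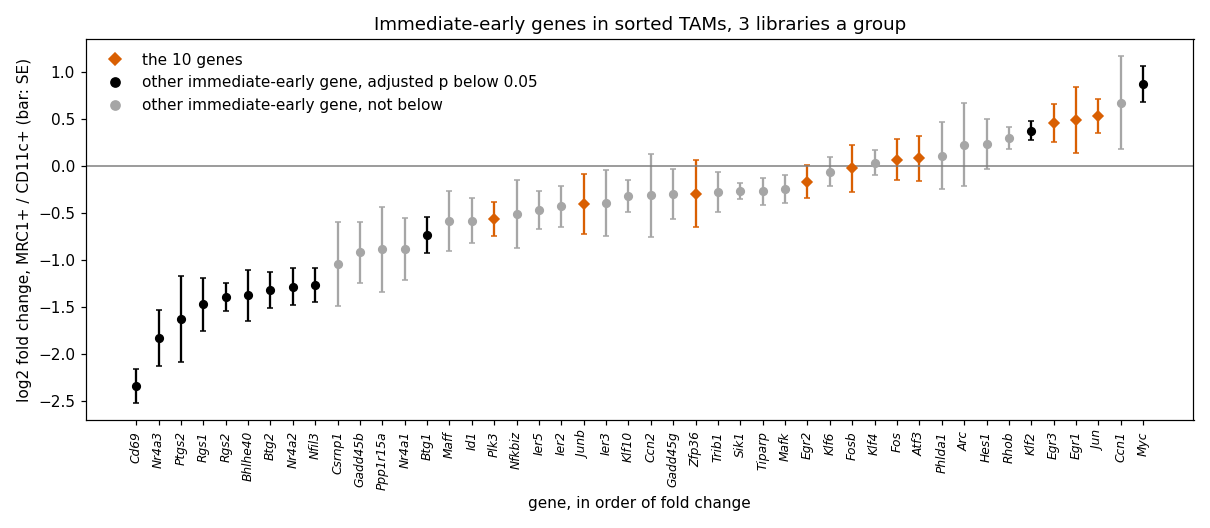
Log2 fold change of MRC1+ over CD11c+ TAMs (vertical axis) for the 10 members (orange diamonds) and 36 other immediate-early genes (circles, black where edgeR's test was passed), in order along the horizontal axis, with bars for the approximate standard error. The 10 genes that passed as lower run from Cd69 at -2.35 to Btg1 at -0.74, and Klf2 and Myc passed as higher.

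Beside 16.6% of all genes in either direction, 2 of 17 AP-1 and ATF partners were higher and 3 lower in MRC1+ TAMs. Their median log2 fold change was -0.01, ran from -0.11 to 0.02 with a library left out, and was 0.13 with library-size scaling, close to the 0.14 of all genes. Maf, a macrophage transcription factor, was higher (467 ± 61.3 against 256 ± 36.9 CPM, 0.86 ± 0.14, edgeR adjusted p = 0.00443), and Batf3, a dendritic cell factor, was lower (1.66 ± 0.306 against 4.61 ± 0.291 CPM, -1.47 ± 0.21, adjusted p = 0.00270). Fosl1 (1.17 ± 0.27, adjusted p = 0.0213) was lost without MRC1+ library 2 (0.0755) or 3 (0.0863) or CD11c+ library 2 (0.0801). Crem (-0.97 ± 0.21, adjusted p = 0.0175) was lost without MRC1+ library 1 (0.0700) or 3 (0.0645) or CD11c+ library 2 (0.0629). Atf6 (-0.33 ± 0.08, adjusted p = 0.0271) was lost without any MRC1+ library (0.0551, 0.101 and 0.118), without the second (0.0810) or the third (0.0694) CD11c+ library, with library-size scaling (0.153) and without the low-count filter (0.0541). The EGR co-repressors Nab1 (-0.25 ± 0.10, adjusted p = 0.113) and Nab2 (-0.15 ± 0.14, adjusted p = 0.507) did not pass, except Nab1 without the first CD11c+ library (0.0301). Egr4 and Wt1 had at most 1 read in a sorted library and were not tested.

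Upstream of the members, 4 of 23 ERK and SRF signalling genes were lower in MRC1+ TAMs and none higher, a count near the 16.6% of all genes that passed. The list's median log2 fold change was -0.12 (-0.07 with upper-quartile and -0.00 with library-size scaling). Rps6ka1, the ERK-activated kinase RSK1, stood at 47.8 ± 3.88 CPM in MRC1+ and 76.2 ± 7.14 CPM in CD11c+ TAMs (-0.67 ± 0.10, edgeR adjusted p = 0.00386). Rps6ka5 (-0.46 ± 0.10), Mapk14, the kinase p38-alpha (-0.32 ± 0.07), and Mrtfa, a cofactor of SRF (-0.64 ± 0.16), also passed. With library-size scaling these 3 did not, at adjusted p of 0.0582, 0.140 and 0.0517. Single libraries also ended these calls. The adjusted p was 0.0725 and 0.0702 for Rps6ka5 without the second and the third MRC1+ libraries and 0.0557 without the second CD11c+ library. Mapk14 reached 0.0581, 0.0947 and 0.0856 without the MRC1+ libraries and 0.0756 and 0.0571 without the second and the third CD11c+ libraries, 0.0525 without the low-count filter and 0.0527 in the fit of 12 libraries. Mrtfa reached 0.0996 and 0.10 without the first and the third MRC1+ libraries and 0.0953 and 0.0824 without the second and the third CD11c+ libraries.

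Of 16 feedback phosphatases and Sprouty genes, which restrain these kinases, 1 was higher and 2 lower, beside 16.6% of all genes in either direction. The list's median was 0.22 (0.12 without the third MRC1+ library, 0.35 with library-size scaling). Dusp7 was higher in MRC1+ TAMs at 57.0 ± 4.88 against 37.1 ± 4.10 CPM (0.62 ± 0.11, edgeR adjusted p = 0.00775) and Dusp16 lower at 59.5 ± 10.5 against 171 ± 61.1 CPM (-1.52 ± 0.26, adjusted p = 0.00640). Dusp2 (-1.63 ± 0.46, adjusted p = 0.0463) was lost with a filter of 5 CPM (0.0512) and without the first (0.142) or second (0.148) MRC1+ or the second (0.0741) or the third (0.107) CD11c+ library. Spry4 (0.81 ± 0.26, adjusted p = 0.0645) passed with DESeq2 (0.0100), without the low-count filter (0.00829) and without the first CD11c+ library (0.00198). In the families of Zfp36 and Plk3, Zfp36l2 (-0.53 ± 0.11, adjusted p = 0.0178) and the mitotic kinase Plk1 (0.57 ± 0.15, adjusted p = 0.0323) passed, while Zfp36l1 (-0.22 ± 0.13, adjusted p = 0.266), Plk2 (0.02 ± 0.34, adjusted p = 0.981) and Plk4 (0.22 ± 0.09, adjusted p = 0.129) did not. Zfp36l2 was lost without the first (0.0736) or second (0.0812) MRC1+ or the third CD11c+ library (0.0588). Plk1 was lost without any MRC1+ library (0.0599, 0.131 and 0.129) and without the second (0.0980) or the third (0.0775) CD11c+ library. Zfp36l3 and Plk5 had at most 1 read in a sorted library.

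Of 11 messages known to be bound by ZFP36, 2 passed as lower in MRC1+ TAMs and none as higher, beside 16.6% of all genes in either direction. The median log2 fold change of these messages was -0.68. The direction of this median rested on 1 library: it was 0.15 without the third CD11c+ library. It was -0.36 and -1.06 without the second and the third MRC1+ library. The inflammatory cytokine Il1b stood at 1375 ± 280 CPM in MRC1+ and 4321 ± 1991 CPM in CD11c+ TAMs (-1.65 ± 0.31, edgeR adjusted p = 0.00970), and Ptgs2 was the other. Il23a (-2.75 ± 1.05, adjusted p = 0.111) and Il6 (-1.56 ± 0.81, adjusted p = 0.218) did not pass, but did with the replicate block (0.000514 and 0.0489), where 5 messages were lower and 1 higher. Il23a also passed without the first CD11c+ library (0.0227), without the low-count filter (0.0111) and in the fit of 12 libraries (0.0475). None of 14 heat shock genes passed edgeR's test, at a median of -0.16 (-0.29 and -0.09 without the second and the third CD11c+ library, -0.04 with library-size scaling), and 3 had an unadjusted p under 0.05. Hspa1b, an inducible chaperone (-0.68 ± 0.27, adjusted p = 0.124), passed with DESeq2 (0.0407) and without the low-count filter (0.0308).

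The second comparison asked which transcripts changed with miR-511-3p relative to its mutated form. Of 14054 genes, 0 passed edgeR's test (0% in either direction), 343 (2.44%) had an unadjusted p under 0.05, and DESeq2 passed 1, Mir511 itself. None of the 10 members passed, and Egr2 and Plk3 had an unadjusted p under 0.05, which for chosen members is a description and no test. The log2 fold changes of miR-511-3p over the mutated form were above 0 for 10 of 10 members, from 0.07 to 0.34, with a median of 0.18 beside 0.00 for all genes, of which 51.3% were above 0. The members' median was 0.04 without the second miR-511-3p library and from 0.13 to 0.25 without any other. The members share libraries and varied together, as described above, so the 10 are not independent of each other. The libraries did not overlap for Egr2 and Plk3, both higher with miR-511-3p, and of all genes 2.79% were separate and higher and 3.59% separate and lower.

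Egr2 measured 355, 393 and 342 CPM with miR-511-3p and 291, 294 and 273 CPM with the mutated form. The lowest miR-511-3p library lay well above the highest mutated one, and the log2 fold change was 0.34 ± 0.07 (SE). Egr1 measured 209, 401 and 246 CPM against 228, 229 and 286 CPM. Only the second miR-511-3p library exceeded the mutated range, and the log2 fold change was 0.20 ± 0.24. Egr3, the member with seed matches, measured 50.6, 61.8 and 59.8 CPM against 39.4, 60.7 and 63.7 CPM. Its groups overlapped, with a log2 fold change of 0.07 ± 0.18.

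Fos measured 791, 1043 and 884 CPM with miR-511-3p and 675, 884 and 857 CPM with the mutated form. Fosb measured 630, 941 and 649 CPM against 550, 606 and 762 CPM. Both overlapped between groups, and both were highest in the second miR-511-3p library, with log2 fold changes of 0.17 ± 0.14 and 0.21 ± 0.19. Jun measured 192, 322 and 234 CPM against 210, 234 and 247 CPM. Junb measured 481, 517 and 448 CPM against 416, 487 and 464 CPM. For both, the second miR-511-3p library was again the highest, and the log2 fold changes were 0.12 ± 0.18 and 0.08 ± 0.09.

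Atf3 measured 335, 420 and 362 CPM with miR-511-3p and 335, 281 and 374 CPM with the mutated form, a log2 fold change of 0.17 ± 0.13. Zfp36 measured 814, 939 and 769 CPM against 707, 787 and 715 CPM, a log2 fold change of 0.19 ± 0.09. Atf3 overlapped across its range, and Zfp36 through the second mutated library, which exceeded the third miR-511-3p library. Plk3 measured 81.8, 82.5 and 83.4 CPM with miR-511-3p and 68.9, 71.5 and 73.4 CPM with the mutated form. The 3 miR-511-3p values were nearly equal and all above the mutated ones, with a log2 fold change of 0.21 ± 0.05. In the sorted comparison, which shares no libraries with this one, Egr2 and Plk3 had log2 fold changes below 0, and the difference between the comparisons was not tested.

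Between same-numbered libraries Egr2 was higher with miR-511-3p by 0.28, 0.42 and 0.32 and Plk3 by 0.25, 0.21 and 0.18 on the log2 scale. Fos and Zfp36 were also higher in each pair. With the replicate block no member passed, and the 1 gene called was Hspg2, a matrix proteoglycan (lower with miR-511-3p, edgeR adjusted p = 0.0271; named after its values were seen). Leaving out each library in turn kept Egr2 between 0.28 and 0.38 and Plk3 between 0.19 and 0.24. Egr1 (-0.12) and Jun (-0.11) were below 0 without the second miR-511-3p library, and Egr3 (-0.12) without the first mutated library. Fosb stood at 0.00 without the second miR-511-3p library, and the other 6 members were above 0 in each of these fits. Fibroblast markers summed to 87.7 to 262 CPM with miR-511-3p and 164 to 650 CPM with the mutated form, the highest being the third mutated library. None of these 10 markers was at 0. Their median log2 fold change was -1.33, with 1 of 10 above 0. None passed edgeR's test, as for all genes here, and 3 had an unadjusted p under 0.05. Medians of neutrophil (-1.05), T and NK cell (-0.97), epithelial (-0.88), B cell (-0.42) and dendritic cell (-0.13) markers were also below 0, each on 2 to 13 genes tested. Endothelial (0.03) and macrophage (0.10) markers had medians above 0. The part of other cells in the members' values was not tested.

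In the pathway lists no gene passed under miR-511-3p, by edgeR or by DESeq2, and 4 had an unadjusted p under 0.05 (Ccn1, Spry4, Ccl3 and Hspb1). The median log2 fold change was -0.00 over 35 other immediate-early genes, -0.01 over 17 AP-1 and ATF partners, -0.01 over 23 ERK and SRF genes and -0.04 over 16 feedback phosphatases and Sprouty genes. With a library left out, these 4 medians stayed between -0.08 and 0.04 and each changed sign. Messages bound by ZFP36 had a median of 0.21, and 9 of 10 were above 0. Their median was 0.10 without the second and 0.13 without the first miR-511-3p library, 0.12 without the first mutated library and 0.36 without the third miR-511-3p library. Among them the chemokine Ccl3 stood at 130 ± 19.0 CPM with miR-511-3p and 102 ± 12 CPM with the mutated form (0.35 ± 0.13, edgeR adjusted p = 0.999883), and Tnf at 216 ± 46.3 against 163 ± 36.3 CPM (0.40 ± 0.20, adjusted p = 0.999883). Of the Polo-like kinases, Plk2 stood at 157 ± 38.6 against 122 ± 20.9 CPM (0.36 ± 0.20, adjusted p = 0.999883). Heat shock genes had a median of 0.08, and 12 of 14 were above 0. The sign of their median rested on single libraries, being -0.06 without the second miR-511-3p and -0.02 without the first mutated library. It was 0.21 and 0.17 without the first miR-511-3p and the second mutated library, and 0.13 without the third mutated library. Their part in the members' values was not tested.

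The overexpression libraries held more of 4 members than the sorted libraries, with no overlap, when the 12 libraries were scaled together. Sort, vector and experiment differ between them and cannot be told apart, so no test was made. Egr3 stood at 6.73 ± 1.54 CPM (SD, n = 6) in the sorted and 58.5 ± 9.66 CPM in the overexpression libraries, an 8.69-fold ratio of means. Egr1 stood at 58.2 ± 24.5 against 278 ± 73.3 CPM (4.77-fold), Fosb at 239 ± 63.5 against 720 ± 145 CPM (3.01-fold) and Zfp36 at 348 ± 145 against 823 ± 86.5 CPM (2.36-fold). Among 13838 genes with a mean of at least 1 CPM, 27.7% were higher in the 6 overexpression libraries without overlap and 20.2% lower. The other 6 members overlapped. Fos (0.858-fold) and Junb (0.889-fold) had lower means in the overexpression libraries, and Egr2, Jun, Atf3 and Plk3 had ratios from 1.34 to 1.55.

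Genes whose levels followed the members were ranked by Pearson's r over the 12 libraries, after each group's mean was subtracted, among 9609 genes with a mean of at least 10 CPM. These values describe 12 libraries that share groups and depth, and carry no p. The highest were Sde2 (0.97), Nfkbiz, an inducible regulator of NF-kB (0.96), the MAP kinase phosphatase Dusp1 (0.96), Tnfaip3, the NF-kB inhibitor A20 (0.95), and the apoptosis regulator Cflar (0.94). The lowest were Zfyve19 (-0.96) and Tmem186 (-0.95). Each member was also set against the mean of the other 9. Junb, Fosb and Fos stood at 0.90, Zfp36, Egr2 and Egr1 at 0.87, Atf3 at 0.68, Jun at 0.64, Plk3 at 0.63 and Egr3 at 0.50.

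Without subtraction, r also carries the difference between sorted and overexpression libraries. On this measure the genes most like Egr2 were Mrps7, Zfp36, Ccl3, Oaz1-ps and Ciao2b, each at 0.91. Those most like Plk3 were Stk40 (0.98), Clk3 (0.98), Paf1 (0.97), Tob2 (0.97) and Brpf1 (0.97). Egr2 and Plk3 stood at 0.85 with each other, and Plk3 at -0.15 with Fos.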

How the data were processed

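Library preparation used an Illumina TruSeq RNA kit, per the labels' protocols. The authors deposited, for each of the 12 libraries, raw read counts by Ensembl gene. Per the submitters' processing notes, the tools were HTSeq, TopHat 1.2.0, Bowtie and SAMtools 0.1.12a, on mm9 (NCBIM37). Counting mode and strand are unknown here, so overlapping genes can share or lose reads. Entries that name no gene, 5 per table, entered neither library sizes nor tests, with reads over no gene at 19.7% to 26.6% in sorted and 7.64% to 10.4% in overexpression libraries. Symbols (31819 genes), exon lengths, coordinates and 3′ UTRs came from GENCODE M21 (GRCm38), whereas the counts were made on mm9.

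Each comparison used edgeR 4.0.16 in R 4.3.3 on its 6 libraries: TMM, filterByExpr, the quasi-likelihood test and Benjamini-Hochberg adjustment over all genes tested. Standard errors are approximate (log2 fold change over the square root of F). RPKM were computed here from TMM CPM. Levels scaled by library size alone differed from TMM CPM by less than 1 SD in each group. No pair of libraries in a group agreed within sampling noise (chi-square per degree of freedom 9.18 to 33.0). The main fits used the group alone, without pairing. Only the replicate block and the differences between same-numbered libraries treated replicate numbers as pairs. This pairing came from these data, not the labels. Deviations of same-numbered libraries correlated at 0.104, 0.337 and 0.250 (sorted) and 0.147, 0.258 and 0.462 (overexpression), all above the limit of 0.1, the lowest only just. For the first miR-511-3p library the second mutated one was closer (0.166). Steps were tested on simulated counts.

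The members and lists were chosen with earlier results of these data known. Named genes were the members, the group checks, up to 4 genes of lowest p per list and comparison, whole small families, and the genes of highest and lowest r. Other immediate-early genes and partners that passed were named after their values were seen. Atf7 was not matched to an identifier. Alternatives were other scalings, DESeq2 1.42.0, other low-count filters, 1 fit of 12 libraries, the replicate block and leaving out each library.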

Additional observations from a re-analysis of the deposited data

How the results depend on the processing

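None of the 10 members passed under miR-511-3p in any alternative run. In the sorted comparison 0 members passed by default, 1 with library-size scaling (Jun), 2 with DESeq2, 2 without the low-count filter, 1 in the fit of 12 libraries (Plk3), 2 with the replicate block, and 0 to 2 when a library was left out. The share of all genes passing was 17.6% with library-size scaling, 19% with DESeq2, 11.9% without the filter, 20.4% in the fit of 12 libraries, 17.8% with the block and 8.02% to 29.6% with a library left out. The genes called numbered 2597, from 1270 (without the second MRC1+ library; 1279 without the third and 1490 without the second CD11c+ library) to 4707 (without the first CD11c+ library), and 2788 with the replicate block.

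Of the lists in that comparison, the other immediate-early genes went from 12 calls to 21 with the replicate block and 7 to 20 with a library left out. AP-1 and ATF partners went from 5 to 8 with DESeq2, 3 with the filter of 5 CPM in 3 libraries, 8 in the fit of 12 libraries, and 2 to 8 with a library left out. ERK and SRF genes went from 4 to 1 with library-size scaling and 1 to 5 with a library left out. Feedback phosphatases and Sprouty genes went from 3 to 5 with library-size scaling, 6 with DESeq2, 7 without the filter, 5 in the fit of 12 libraries and 2 to 7 with a library left out. Messages bound by ZFP36 went from 2 to 1 with DESeq2, 4 without the filter, 1 with the filter of 5 CPM, 4 in the fit of 12 libraries, 6 with the replicate block and 1 to 4 with a library left out. With a library left out, the EGR list had 0 to 1 calls, the ZFP36 family 0 to 1, Polo-like kinases 0 to 1 and heat shock genes 0; heat shock genes had 1 with DESeq2 and 1 without the filter.

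Under miR-511-3p the 0 genes called became 1 with DESeq2 (Mir511), 1 in the fit of 12 libraries (Mir511), 1 with the replicate block (Hspg2) and 0 with any library left out. The causes were not tested. Egr3, at 4.92 to 9.17 CPM in sorted libraries, was the member most limited by depth, and 3 libraries per group limit the precision of each value.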
